A study of Homo sapiens with 6 samples.

Results

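SLC7A11, the cystine transporter xCT, was examined together with the genes of glutathione synthesis and recycling and with targets of the transcription factor NRF2, in Huh7 cells that overexpressed VPS72. The 10 genes were SLC7A11, GCLC, GCLM, GSR, GPX4, NFE2L2, NQO1, TXNRD1, SRXN1 and HMOX1, taken by symbol from 37822 gene symbols in the table, and all 10 were among the 14253 genes that passed the filter on low counts. Huh7 is a human hepatocellular carcinoma cell line. The VPS72 group was 3 libraries from cells given a VPS72 lentivirus, with the genotype label of VPS72 overexpression. The FLAG group was 3 libraries from cells given the FLAG control lentivirus, with a wild-type genotype label. Cells of both groups were exposed to virus for 24 h, and VPS72, a subunit of the chromatin complexes that handle the histone variant H2A.Z, was the gene under test.

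SLC7A11 pairs with SLC3A2 in the plasma membrane and exchanges intracellular glutamate for extracellular cystine. Cystine is reduced to cysteine, which glutamate-cysteine ligase (catalytic subunit GCLC, modifier subunit GCLM) joins to glutamate in the rate-limiting step of glutathione synthesis. GSR returns oxidised glutathione to its reduced form, and GPX4 uses glutathione to remove lipid hydroperoxides, which restrains the iron-dependent cell death called ferroptosis. NFE2L2 encodes NRF2, which KEAP1 marks for degradation in unstressed cells and which, once free, binds antioxidant response elements with small MAF proteins. SLC7A11 is a target of NRF2 and also of ATF4, the transcription factor of the amino acid and endoplasmic reticulum stress responses, and ATF3 has been described as a repressor of it. The question was whether SLC7A11 was lower together with NRF2 targets or apart from them.

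Promoters of 7 of the 10 genes, 250 bases before to 50 bases after a gene start, were matched in the RefSeq promoter table (GRCh38.p14), in 11 windows. SLC7A11 and HMOX1 had no window there, and GSR lay in a part of the table that was not searched. The matched windows belong to GCLC, GCLM, GPX4, NFE2L2, NQO1, TXNRD1 and SRXN1. The antioxidant response element was searched as TGACNNNGC on both strands, and it was found in the windows of GCLM and TXNRD1 and in no window of the other 5 genes. GCLM and TXNRD1 are printed because they are the members with the element, and NQO1 because it is an NRF2 target without these letters in its window. Capitals mark the element, which lies on the reverse strand in both and reads GCNNNGTCA. It begins at position -34 from the gene start in GCLM (chr1:93909381-93909680, minus strand), and at position -102 in the window of TXNRD1 that starts farther downstream (chr12:104286782-104287081, plus strand). The other TXNRD1 window (chr12:104215529-104215828, plus strand), not printed, holds 2 matches. The NQO1 window is chr16:69726511-69726810 on the minus strand.
GCLM: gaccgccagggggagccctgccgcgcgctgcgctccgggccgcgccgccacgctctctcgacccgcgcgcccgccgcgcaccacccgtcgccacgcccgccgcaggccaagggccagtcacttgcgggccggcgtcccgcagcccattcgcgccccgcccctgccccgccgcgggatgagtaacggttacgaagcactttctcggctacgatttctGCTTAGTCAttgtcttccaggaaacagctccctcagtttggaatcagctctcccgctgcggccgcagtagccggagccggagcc
TXNRD1: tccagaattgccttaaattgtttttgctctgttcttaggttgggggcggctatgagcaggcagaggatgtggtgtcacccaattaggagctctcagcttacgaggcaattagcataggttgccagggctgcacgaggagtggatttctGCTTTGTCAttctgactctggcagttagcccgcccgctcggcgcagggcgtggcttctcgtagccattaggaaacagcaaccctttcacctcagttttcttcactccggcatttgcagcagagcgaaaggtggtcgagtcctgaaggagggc
NQO1: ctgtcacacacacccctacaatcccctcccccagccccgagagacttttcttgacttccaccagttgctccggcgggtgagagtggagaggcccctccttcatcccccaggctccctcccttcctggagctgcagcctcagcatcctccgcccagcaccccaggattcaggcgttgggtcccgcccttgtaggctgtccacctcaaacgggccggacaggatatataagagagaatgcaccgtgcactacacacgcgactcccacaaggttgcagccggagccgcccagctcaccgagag
The letters TGACNNNGC occur in 13.3% of all 35116 promoter windows of this length searched, so a match describes the sequence and does not show a bound site. The ATF4 composite element, searched as TGATGNAA on both strands, occurs in 3.62% of windows and in none of the 11. The AP-1 site TGANTCA (7.71% of windows) and the cyclic AMP response element TGACGTCA (1.85%) were in none of the 11 windows either. The antioxidant response element and AP-1 letters can share bases, since both begin with TGA and allow a C next. No match says only that these letters are not in these windows.

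Total counts were 23969324 to 29091824 in VPS72 libraries and 21345279 to 25352335 in FLAG libraries. VPS72 itself averaged 1161 ± 11.5 CPM in VPS72 libraries and 24.0 ± 2.70 CPM in FLAG libraries (SD, n = 3 each), in the direction of the labels. CPM is the count scaled to a common library size, with TMM factors that align libraries by the bulk of their genes. All 10 Huh7 hepatocyte markers were detected, with a summed level of 21440 to 22220 unscaled CPM in VPS72 libraries and 19340 to 20250 in FLAG libraries. Of 8 HEK293T markers, the line that made the virus, SOX11 and NEFL had 0 counts in every library, 2 passed the filter on low counts, and the list's sum of 419 to 428 CPM in VPS72 and 423 to 451 CPM in FLAG libraries was carried by LIN28B. Summed markers of fibroblasts (10.0 to 10.5 and 10.2 to 11.5 CPM), immune cells (13.4 to 14.3 and 10.9 to 12.6 CPM) and endothelial cells (4.08 to 4.88 and 2.81 to 4.61 CPM) were low in VPS72 and FLAG libraries. Their part in the results was not tested. In bulk RNA, fewer cells with a transcript and less transcript per cell cannot be told apart. Whether the 3 replicates were grown as separate cultures is not in the labels, and the spread the tests use may be technical.

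SLC7A11 was lower in every VPS72 library by more than the library spread, while GSR, NQO1, TXNRD1 and HMOX1 lay higher in every VPS72 library and the rest overlapped or, for GCLC, lay slightly lower. SLC7A11 had 42.0, 43.5 and 44.8 CPM in VPS72 libraries, against 60.2, 61.1 and 60.2 CPM in FLAG libraries. The 3 VPS72 values lie close together and well below the 3 FLAG values, with no overlap. The counts behind them were 1060 to 1209 in VPS72 libraries and 1294 to 1557 in FLAG libraries, so counting error alone is 3.07% or less in any library. SLC7A11 averaged 43.4 ± 1.37 CPM in VPS72 and 60.5 ± 0.51 CPM in FLAG libraries (SD, n = 3 each), a log2 fold change of -0.48 ± 0.05 (SE, 95% interval -0.60 to -0.36), or a fall of 28.3%. SLC7A11 entered this set because of that fall, so its values are a description and carry no test here.

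**Figure D1:**
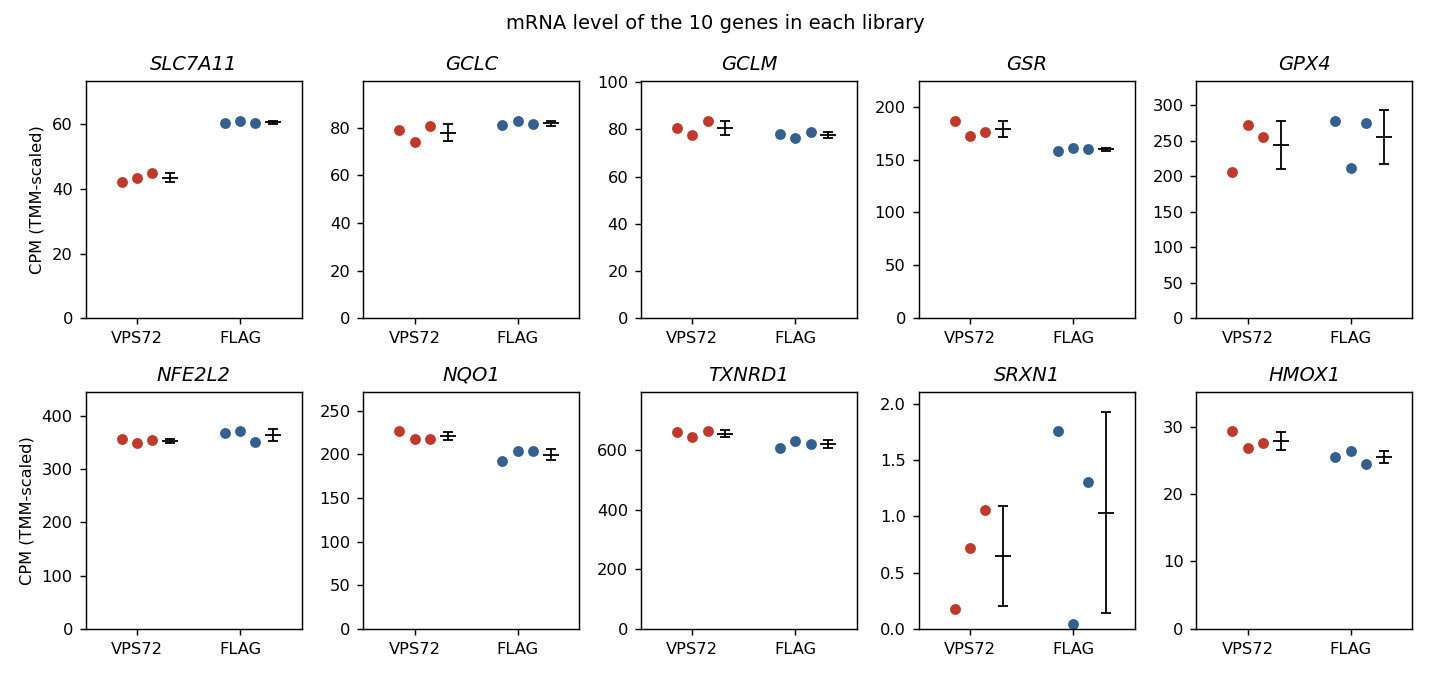
TMM-scaled CPM (vertical axes, each from 0) of the 10 genes in the 3 VPS72 libraries (red) and 3 FLAG libraries (blue), 1 point per library, with the mean and SD beside each group. SLC7A11 lies at 42.0 to 44.8 CPM in VPS72 and 60.2 to 61.1 CPM in FLAG libraries, GPX4 and SRXN1 scatter within both groups, and the other genes differ little between the groups.

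Of the 10 genes, 1 was past the threshold (edgeR quasi-likelihood, Benjamini-Hochberg adjusted p under 0.05 over 14253 genes), SLC7A11, where 0.617% of all tested genes were past it. The share lower in VPS72 was 0.196% of tested genes. At an unadjusted p under 0.05 there were 3 members higher and 1 lower, where 6.03% of all tested genes were higher and 5.51% lower. DESeq2 called SLC7A11 lower and GSR and NQO1 higher, where it called 0.477% of all genes lower and 1.02% higher. Limma-voom called SLC7A11, where it called 0.253% lower and 0.645% higher. Since the members were chosen with this contrast in view, nothing is read from these counts.

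The 2 subunits of glutamate-cysteine ligase, which use the cysteine that SLC7A11 supplies, differed little between the groups. GCLC, the catalytic subunit, had 79.1, 73.7 and 80.5 CPM in VPS72 libraries, against 81.2, 82.9 and 81.3 CPM in FLAG libraries. All VPS72 values lie below all FLAG values, but the nearest pair is less than 1 CPM apart (80.5 and 81.2 CPM), and the log2 fold change was -0.07 ± 0.05 (SE, 95% interval -0.18 to 0.03). GCLM, the modifier subunit, had 80.7, 77.5 and 83.7 CPM in VPS72 libraries, against 78.1, 76.3 and 78.8 CPM in FLAG libraries, and the groups overlap. Its log2 fold change was 0.05 ± 0.05 (SE, 95% interval -0.05 to 0.15).

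Glutathione reductase was on the other side. GSR had 186.9, 172.4 and 176.3 CPM in VPS72 libraries, against 158.5, 160.7 and 159.9 CPM in FLAG libraries, with every VPS72 value above every FLAG value. The log2 fold change was 0.16 ± 0.04 (SE, 95% interval 0.07 to 0.25), and GSR did not pass the threshold over all genes in edgeR. GPX4, the lipid hydroperoxidase, had 206.3, 271.8 and 255.4 CPM in VPS72 libraries, against 278.5, 212.0 and 275.5 CPM in FLAG libraries. VPS72 replicate 1 and FLAG replicate 2 stand low and the other libraries high, so the groups overlap widely. GPX4 varied by 13.9% within VPS72 and 14.7% within FLAG libraries (coefficient of variation), where counting error is at most 1.36% and the common coefficient of variation of all tested genes was 7.24%. Its log2 fold change of -0.06 ± 0.10 (SE) had an interval of -0.26 to 0.14, and its sign turned without VPS72 replicate 1 (0.05) or without FLAG replicate 1 (0.01).

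The mRNA of NRF2 itself was nearly level. NFE2L2 had 356.3, 348.5 and 354.9 CPM in VPS72 libraries, against 368.8, 371.4 and 351.3 CPM in FLAG libraries, and the groups overlap. The log2 fold change was -0.04 ± 0.04 (SE, 95% interval -0.12 to 0.03). NRF2 is governed mainly through the stability of its protein, which was not measured here, so its targets are the nearer readout.

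Among those targets, NQO1, the quinone reductase often used as a marker of NRF2 activity, had 226.5, 218.1 and 218.1 CPM in VPS72 libraries, against 192.3, 203.7 and 203.4 CPM in FLAG libraries. The groups do not overlap, VPS72 being higher, and the log2 fold change was 0.14 ± 0.04 (SE, 95% interval 0.06 to 0.23). TXNRD1, the cytosolic thioredoxin reductase, had 660.2, 644.0 and 664.1 CPM in VPS72 libraries, against 608.2, 632.7 and 621.9 CPM in FLAG libraries. These groups too do not overlap, at a log2 fold change of 0.08 ± 0.03 (SE, 95% interval 0.02 to 0.14). HMOX1, the stress-induced haem oxygenase, had 29.3, 26.8 and 27.5 CPM in VPS72 libraries, against 25.5, 26.4 and 24.5 CPM in FLAG libraries. Its values do not overlap by a narrow margin (26.8 against 26.4 CPM), with a log2 fold change of 0.13 ± 0.08 (SE, 95% interval -0.03 to 0.30). None of NQO1, TXNRD1 and HMOX1 passed the threshold over all genes in edgeR. Over the 10 members, 4 were higher and 2 lower without overlap between the groups, 6 in all, where 8.76% and 8.47% of all tested genes were, 17.2% in all.

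SRXN1, sulfiredoxin, which repairs overoxidised peroxiredoxins, could not be placed. It had 5, 19 and 25 counts in VPS72 libraries, against 45, 1 and 28 counts in FLAG libraries. Counts within each group differ several-fold, and the interval of the log2 fold change of -0.68 ± 0.75 (SE) ran from -2.27 to 0.90. In the GENCODE 29 annotation (GRCh38) a second protein-coding gene on the same strand, AL121758.1, covers 99.8% of the span of SRXN1. It has no row in the count table, its part in the scatter was not tested, and SRXN1 is reported as uncertain. Non-coding genes on the same strand, also without a row, cover 66.1% of the span of NFE2L2 (AC019080.1) and 46.5% of that of GCLC (AL033397.1). Their part in those counts was not tested. SLC7A11-AS1, which runs antisense to SLC7A11, had 0 counts in all 6 libraries.

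**Figure D2:**
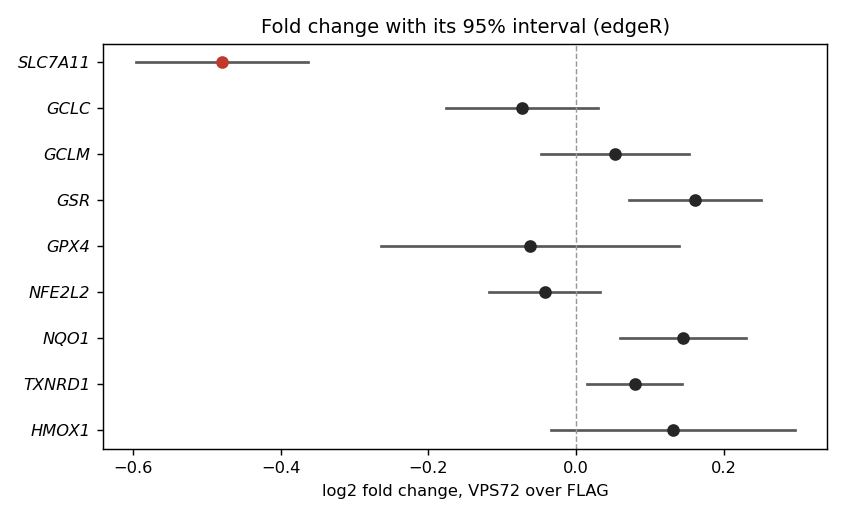
Log2 fold change, VPS72 over FLAG (horizontal axis), of 9 of the 10 genes, with a line for the 95% interval of each gene taken alone, not adjusted for the number of genes; SRXN1, whose interval ran from -2.27 to 0.90, is left out. SLC7A11, chosen for its fall in this contrast, is at -0.48, and the intervals of GSR, NQO1 and TXNRD1 lie above 0.

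Set beside NQO1, GCLM and TXNRD1 within the same library, SLC7A11 was lower whatever the scaling, because a ratio of counts in 1 library does not depend on it. SLC7A11 counts were 18.6%, 19.9% and 20.5% of NQO1 counts in VPS72 libraries, against 31.3%, 29.99% and 29.6% in FLAG libraries. Relative to GCLM they were 52.1%, 56.1% and 53.5% in VPS72 libraries, against 77.1%, 80.1% and 76.4% in FLAG libraries. Every VPS72 ratio lies below every FLAG ratio for both partners. Relative to TXNRD1 the ratio was 6.37%, 6.75% and 6.74% in VPS72 libraries, against 9.90%, 9.66% and 9.68% in FLAG libraries. The fall that chose SLC7A11 carries into every ratio, so these are a description and nothing is read from their number. The ratio to SRXN1 overlapped between the groups. The mean log2 ratio, VPS72 minus FLAG, ran from -0.64 against GSR to -0.41 against GCLC for the other 8 partners.

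**Figure D3:**
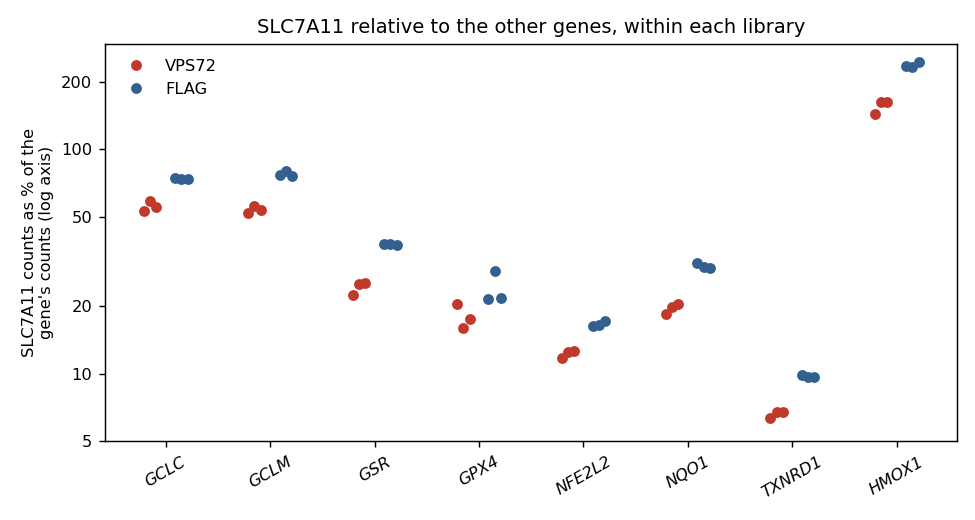
SLC7A11 counts as a percentage of the counts of 8 other members in the same library (log axis), for VPS72 libraries (red, left of each pair) and FLAG libraries (blue, right). The VPS72 points lie below the FLAG points for every partner shown, as with GCLM (52.1% to 56.1% against 76.4% to 80.1%), and GPX4 shows the widest scatter.

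The 7 NRF2 targets among the members other than SLC7A11 (GCLC, GCLM, GSR, NQO1, TXNRD1, SRXN1 and HMOX1) had a median log2 fold change of 0.08, and SLC7A11 lay 0.56 below it. That distance was -0.58 to -0.52 on the log2 scale under every alternative run, including each library left out in turn. All tested genes had a median of -0.00.

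Levels between genes were compared as CPM per kilobase of the principal coding transcript in GENCODE 29, a length that need not match the isoforms these cells make. SLC7A11, with a transcript of 9645 bases, had 4.50 CPM per kilobase in VPS72 and 6.27 in FLAG libraries, the lowest level of the 10 apart from SRXN1. GPX4 was highest at 266 CPM per kilobase in VPS72 and 278 in FLAG libraries, followed by TXNRD1 (167 and 158), NFE2L2 (124 and 128), NQO1 (75.9 and 68.6) and GSR (55.9 and 50.03). GCLC (20.4 and 21.4), GCLM (16.6 and 16.0) and HMOX1 (15.3 and 14.0) lay between these and SLC7A11. The order was the same in both groups. Ranges over libraries of neighbours in this order did not overlap, except those of GCLM and HMOX1 in VPS72 libraries.

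The genes around the members were taken from 11 lists chosen by function, with 159 genes besides the members, of which 152 were tested. In edgeR, 2 rose, 2 fell and 148 did not pass, where 0.421% of all tested genes rose and 0.196% fell. DESeq2 called 9 higher and 4 lower, against 1.02% and 0.477% of all tested genes, and limma-voom 4 higher and 3 lower, against 0.645% and 0.253%. At an unadjusted p under 0.05, the list counts below stand against 6.03% of all tested genes higher and 5.51% lower.

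Other NRF2 targets lay slightly higher in VPS72 libraries. Of 25 tested, 2 rose, 0 fell and 23 did not pass in edgeR, while 10 were higher and 0 lower at an unadjusted p under 0.05 (all tested genes 6.03% and 5.51%), and DESeq2 called 4 higher and 0 lower. PRDX1, a thiol peroxidase, had 443.4, 413.5 and 409.2 CPM in VPS72 libraries, against 359.3, 375.3 and 368.1 CPM in FLAG libraries. It rose by 14.8%, in 3 of 3 libraries (log2 fold change 0.20 ± 0.04, adjusted p = 0.0243 in edgeR). FTL, the ferritin light chain that stores iron released by haem oxygenase, averaged 5045 ± 209.6 CPM in VPS72 and 4643 ± 43.3 CPM in FLAG libraries (SD, n = 3 each), higher in 3 of 3 libraries. Its log2 fold change was 0.12 ± 0.02 (edgeR, Benjamini-Hochberg adjusted p = 0.0324). Both calls were lost with library size alone (edgeR, Benjamini-Hochberg adjusted p = 0.0654 for PRDX1 and 0.121 for FTL) and with the trend of fold change with abundance removed (0.0827 and 0.617), where the fold change of FTL was 0.03. Blocking on replicate ended both calls (adjusted p = 0.0995 for each in edgeR), and upper quartile scaling that of FTL (0.072 in edgeR). They were lost too without VPS72 replicate 1, FLAG replicate 1 or FLAG replicate 3, with an adjusted p of 0.172 for PRDX1 and 0.18 for FTL without FLAG replicate 1, and FTL also without VPS72 replicate 2 (edgeR, 0.167).

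The direction of that list was even where its size was small. The list was drawn with earlier results of these data known, so its direction is a description. It leaves out the members, of which SLC7A11, GCLC and the uncertain SRXN1 had negative log2 fold changes. All 25 genes had a positive log2 fold change, up to 0.38 for AKR1B10, with a median of 0.10, where 48.8% of all tested genes were positive, as were 65.7% of the 2270 tested genes with a mean of at least 100 CPM, whose median was 0.03. The number positive was 23 to 25 over the alternatives, the negative genes including FTH1 with the abundance trend removed and AKR1C3 or PIR without 1 or another single library. The list's median was 0.07 with library size alone and 0.08 with the abundance trend removed. Of the 25 genes, 10 were higher and 0 lower without overlap between the groups, where 8.76% and 8.47% of all tested genes were. The summed Huh7 hepatocyte markers were also higher in VPS72 libraries. In edgeR 7 of 10 of them rose, where 0.421% of all tested genes did, with a median log2 fold change of 0.21. These markers are abundant (median 1049 CPM), in the range where positive fold changes were more frequent. Their part in the direction of the list was not tested. FTL, FTH1 and PRDX1 have processed pseudogenes and the AKR1C genes are near-identical, so their counts are less certain.

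**Figure D4:**
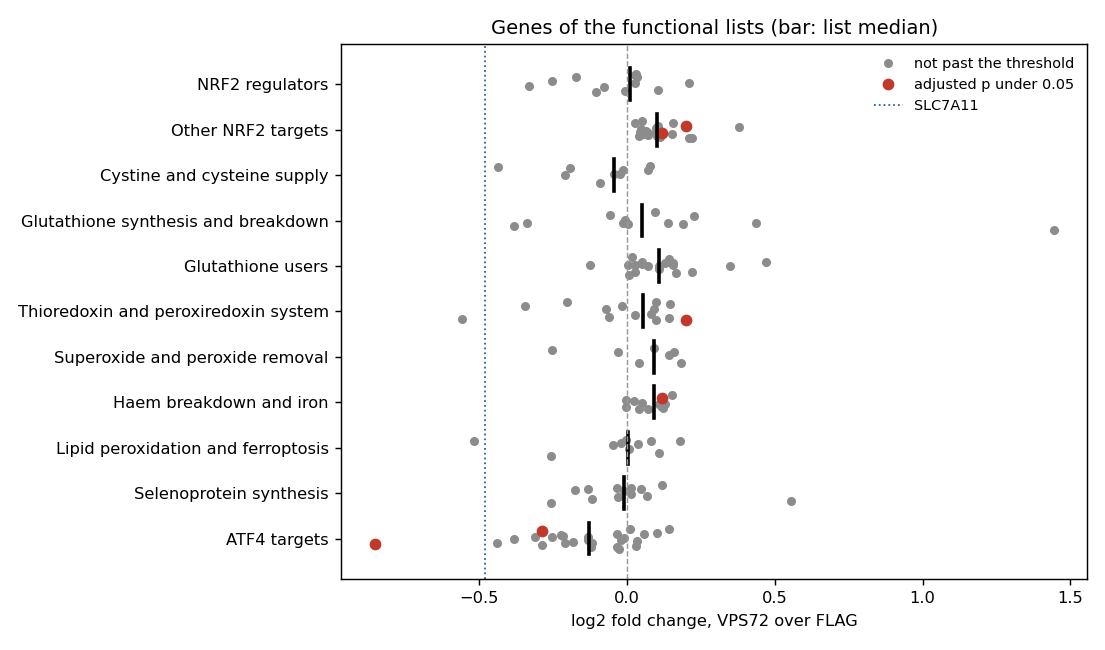
Log2 fold change, VPS72 over FLAG (horizontal axis), of the tested genes of 11 functional lists, 1 point per gene, with red points past the threshold of edgeR over all genes, black bars at list medians and a dotted line at SLC7A11. Other NRF2 targets all lie right of 0 with a median of 0.10, and ATF4 targets lie mostly left with a median of -0.13.

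Regulators of NRF2 were not called. Of 12 tested, 0 passed in edgeR, 1 was higher and 1 lower at an unadjusted p under 0.05, DESeq2 called 0, and the list median was 0.01. Log2 fold changes were positive for 6 genes and negative for 6. The small MAF genes, picked out once their values were known, were negative: MAFF -0.33 ± 0.16, MAFG -0.25 ± 0.07 and MAFK -0.17 ± 0.11 (SE). Without overlap between the groups, 1 gene was higher (RBX1) and 2 lower (MAFF and MAFG). Of all tested genes, 8.76% and 8.47% were. KEAP1, the adaptor that targets NRF2 for degradation, had a log2 fold change of -0.08 ± 0.08 (edgeR, Benjamini-Hochberg adjusted p = 0.788), and BACH1, the repressor that competes with NRF2 for antioxidant response elements, one of -0.10 ± 0.05 (edgeR, Benjamini-Hochberg adjusted p = 0.441). SQSTM1, the autophagy receptor that can sequester KEAP1, had 0.03 ± 0.03 and GSK3B, a kinase that primes NRF2 for degradation, 0.03 ± 0.04. The sign of SQSTM1 turned with library size alone and that of SQSTM1 and GSK3B with the abundance trend removed.

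Supply of cystine and cysteine gave 0 calls in edgeR among 9 tested genes. At an unadjusted p under 0.05, 0 were higher and 3 lower, DESeq2 called 1 lower, CTH, and the list median was -0.04. SLC3A2, the heavy chain that carries SLC7A11 to the membrane, had 140.9, 145.9 and 160.5 CPM in VPS72 libraries, against 181.5, 152.0 and 183.2 CPM in FLAG libraries. The groups overlap through FLAG replicate 2 and VPS72 replicate 3, and the log2 fold change was -0.21 ± 0.07 (edgeR, Benjamini-Hochberg adjusted p = 0.191). SLC3A2 passed the threshold in 2 of 16 refits, without a filter and without FLAG replicate 2, a library that makes the overlap. Without FLAG replicate 2 its log2 fold change was -0.29 (edgeR, Benjamini-Hochberg adjusted p = 0.0174). Over the refits it ran from -0.29 to -0.16. CTH, which makes cysteine from cystathionine and was picked out once its values were known, had 14.2, 13.7 and 12.5 CPM in VPS72 libraries, against 17.0, 18.7 and 18.9 CPM in FLAG libraries, with no overlap and an adjusted p of 0.0615 in edgeR. MAT2A, which makes S-adenosylmethionine, had a log2 fold change of 0.07 ± 0.04.

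The enzymes that make, break down and use glutathione were not called in edgeR. Of 12 genes of synthesis and breakdown 0 passed, with 2 higher and 1 lower at an unadjusted p under 0.05, 0 called by DESeq2 and a median of 0.05. GSS, which completes glutathione, had a log2 fold change of -0.06 ± 0.05 and ABCC1, an exporter of glutathione conjugates, one of -0.01 ± 0.05. Of 20 glutathione users 0 passed, with 6 higher and 0 lower at an unadjusted p under 0.05 (all tested genes 6.03% and 5.51%), 1 called higher by DESeq2 (GSTP1) and a median of 0.11. GSTP1, a glutathione transferase, had 0.15 ± 0.04 (edgeR, Benjamini-Hochberg adjusted p = 0.124) and MGST1, a membrane-bound one, 0.16 ± 0.05 (0.164). Among these 20 genes 19 had a positive log2 fold change, and 14 with library size alone.

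Partners of TXNRD1 and GPX4 were mixed. Of 14 genes of the thioredoxin and peroxiredoxin system 1 rose, PRDX1, 0 fell and 13 did not pass in edgeR, with 4 higher and 1 lower at an unadjusted p under 0.05 and a median of 0.05. DESeq2 called PRDX1 higher and TXNIP, the inhibitor of thioredoxin, lower. Of 7 genes of superoxide and peroxide removal 0 passed, with 2 higher and 1 lower at an unadjusted p under 0.05 and 0 by DESeq2, SOD2 at -0.03 ± 0.04 and SESN3 at 0.04 ± 0.05 on the log2 scale. Of 12 genes of haem breakdown and iron 1 rose, FTL, 0 fell and 11 did not pass, with 5 higher and 0 lower at an unadjusted p under 0.05, DESeq2 calling 3 higher, and a median of 0.09. Of 10 ferroptosis genes 0 passed in edgeR, with 2 higher and 1 lower at an unadjusted p under 0.05 and 1 called higher by DESeq2, LPCAT3. Their log2 fold changes were positive for 5 and negative for 5, with a median of 0.003. DHODH, picked out once its values were known, had -0.52 ± 0.17 (SE), and its groups overlap. ACSL4, which activates the polyunsaturated fatty acids that peroxidise, had a log2 fold change of 0.11 ± 0.04 and LPCAT3, which places them in membranes, one of 0.18 ± 0.05 (edgeR, Benjamini-Hochberg adjusted p = 0.262 and 0.108). Of 13 selenoprotein genes 0 passed in edgeR, with 1 higher and 1 lower at an unadjusted p under 0.05 and 1 called higher by DESeq2, SELENOP, the secreted selenium carrier (0.12 ± 0.03), while SELENOT stood at -0.03 ± 0.05.

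ATF4 targets, a list that holds ATF4 itself and shares genes with other lists, lay mostly lower. SLC7A11, at -0.48, lay well below the list median of -0.13. Of 26 tested 0 rose, 2 fell and 24 did not pass in edgeR, with 0 higher and 8 lower at an unadjusted p under 0.05 (all tested genes 6.03% and 5.51%), and DESeq2 called the same 2, ATF3 and PPP1R15A. ATF3 had 16.9, 18.0 and 19.3 CPM in VPS72 libraries, against 31.15, 30.65 and 36.0 CPM in FLAG libraries, with no overlap. Its log2 fold change was -0.85 ± 0.09 (edgeR, Benjamini-Hochberg adjusted p = 0.000362), lower in 3 of 3 libraries. PPP1R15A, the stress-induced subunit of the eIF2-alpha phosphatase, had 104.9, 115.3 and 117.0 CPM in VPS72 libraries, against 139.2, 136.6 and 135.7 CPM in FLAG libraries. It fell by 18.1%, in 3 of 3 libraries (edgeR, Benjamini-Hochberg adjusted p = 0.00868), a call lost without VPS72 replicate 1 (edgeR, 0.059) or FLAG replicate 1 (0.088). ATF4 itself had a log2 fold change of -0.03 ± 0.05 (adjusted p = 0.872 in edgeR), with a sign that turned without FLAG replicate 1. Of the 26 genes 6 had a positive and 20 a negative log2 fold change, with a median of -0.13, and 5 to 7 were positive over the alternatives. Without overlap between the groups 0 were higher and 6 lower, where 8.76% and 8.47% of all tested genes were. Several abundant targets, picked out once their values were known, were nearly level. Log2 fold changes were -0.02 for TRIB3, 0.01 for SLC7A5, 0.06 for PSAT1, -0.01 for SHMT2 and -0.03 for SLC7A1.

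Genes whose profile over the 6 libraries was most like that of SLC7A11 were ranked by the root mean square difference of log2 CPM after each gene's own mean was removed, among 10407 genes with a mean of at least 5 CPM. The nearest 5 were ZIC5 (0.06), KLF10 (0.06), PLD6 (0.06), GADD45B (0.06) and BLOC1S4 (0.07). KLF10, a zinc finger factor first known as an early response to TGF-beta, had 52.1 ± 0.72 CPM in VPS72 and 71.6 ± 5.03 CPM in FLAG libraries (SD, n = 3 each), and GADD45B, a stress-response gene, 39.5 ± 1.68 and 51.5 ± 1.96 CPM. ZIC5, PLD6 and BLOC1S4 averaged 4.58 to 4.93 CPM in VPS72 and 6.10 to 6.70 CPM in FLAG libraries. They did not pass the threshold in edgeR, while KLF10 and GADD45B did. All 5 were picked for likeness to a gene chosen for its fall, so nothing is read from those calls. The members were farther from SLC7A11, from 0.21 for GCLC to 0.32 for GSR, with SRXN1 below the abundance needed.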

How the data were processed

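RNA was sequenced from 3 VPS72 and 3 FLAG libraries of Huh7 cells, isolated with RNAzol and made into libraries with KAPA RNA HyperPrep (labels' protocols). The authors deposited estimated counts per gene symbol, as whole numbers and not normalized. STAR, RSEM, limma and the builds hg19 and hg38 are listed, with no role or order, per the submitters' processing notes. Their versions, the annotation and the strand setting were not given in the sources used here.

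Groups and replicate numbers came from sample titles. Genes were filtered with filterByExpr by group (minimum count 10, minimum total 15), which left 14253 genes holding 99.925% of counts. The contrast of VPS72 over FLAG was tested with the quasi-likelihood method of edgeR (4.0.16, in R 4.3.3), with TMM scaling and Benjamini-Hochberg adjustment over all tested genes, at a threshold of 0.05, and the procedure was tested on simulated data. The standard error is the log2 fold change divided by the square root of F. Total counts of 21345279 to 29091824 per library limit precision, and counting errors given cover counting only. Replicate pairs differed by more than sampling noise (chi-square per degree of freedom 4.70 to 7.69). Each library counted as 1 sample, though this excess does not show that the cultures were separate. An exact permutation test of 3 against 3 cannot go below 0.1 and was not used.

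The members and lists were chosen with earlier results of these data known. The members' values and the directions of the lists are therefore a description. Named genes were the members, ATF3, ATF4, BACH1, KEAP1 and SLC3A2, of each list up to 3 genes past the threshold with the smallest p, or the 2 most abundant where none passed, and the 5 genes most like SLC7A11. Any other gene was named after its values were seen. Alternatives were DESeq2 (1.42.0) size factors, library size only, upper quartile scaling, removal of a smooth trend with abundance, no filter, a filter of 50 counts in 3 libraries, DESeq2, limma-voom (limma 3.58.1), the replicate block, VPS72 left out of library sizes, a threshold of 0.01 and each library left out in turn. Gene lengths and overlaps came from GENCODE 29, promoters from RefSeq (GRCh38.p14), used only for those sequences since the build of the counts is not known. Some results are not reported here.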

Additional observations from a re-analysis of the deposited data

How the results depend on the processing

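SLC7A11, chosen for its fall in these libraries, had a log2 fold change of -0.51 to -0.45 over the 16 refits, which reuse them and are no independent support. Its distance from the NRF2 target median moved by less than the library spread in every refit. Members past the threshold numbered 1, against 2 without a filter (GSR added) and 3 with DESeq2 (GSR and NQO1 added). Genes higher and lower over the whole table numbered 60 and 28. They were 32 and 54 with library size only, 27 and 27 with the abundance trend removed, 166 and 98 without a filter, 146 and 68 with DESeq2, 92 and 36 with limma-voom, 21 and 11 at a threshold of 0.01, and 44 and 32 with upper quartile scaling. Leaving out 1 library gave 15 to 61 higher and 9 to 39 lower, with 26 and 9 without VPS72 replicate 1, 35 and 17 without VPS72 replicate 2, 39 and 17 without VPS72 replicate 3, 15 and 10 without FLAG replicate 1, and 28 and 14 without FLAG replicate 3. Genes of the functional lists numbered 2 higher and 2 lower. The higher count was 0 with library size only, 1 with upper quartile scaling, 0 with the abundance trend removed, 9 without a filter, 9 with DESeq2, 4 with limma-voom and 0 at a threshold of 0.01, and 0 to 3 without single libraries. The lower count was 4 with library size only, 8 without a filter and 4 with DESeq2, and 1 to 4 without single libraries. With the replicate number as a block, 18 genes were higher and 14 lower, 0 list genes were higher, and SLC7A11 had a log2 fold change of -0.48. Libraries of the same number did not deviate together over all tested genes (correlations of -0.04, 0.04 and 0.06). Pairing is not in the labels, and these values cannot show whether the numbers pair the samples. Signs turned, always with an adjusted p of at least 0.81, for GPX4 without VPS72 replicate 1 (0.052) or FLAG replicate 1 (0.0055; range without single libraries -0.179 to 0.052), SRXN1 with limma-voom (0.038), SQSTM1 with library size only (-0.001655) or the abundance trend removed (-0.027), GSK3B with that trend removed (-0.0058), KEAP1 without FLAG replicate 3 (range -0.121 to 0.0059), ABCC1 without VPS72 replicate 3 (range -0.027 to 0.0070), SELENOT without FLAG replicate 1 (range -0.083 to 0.025) and ATF4 without FLAG replicate 1 (range -0.078 to 0.00062). The cause of these changes was not tested. SRXN1 gave no value under the stricter filter, and its depth of 1 to 45 counts is too low to show a change.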
